A study of Rattus norvegicus with 20 samples.

Results

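The enzymes and carriers that take glucose into the heart muscle cell and break it down to lactate were followed in neonatal rat heart cultures given celecoxib, an inhibitor of the enzyme cyclooxygenase-2. The set holds 10 genes, taken by name: the glucose transporters Slc2a1 and Slc2a4, the hexokinases Hk1 and Hk2, the phosphofructokinase Pfkp, the phosphoglycerate kinase Pgk1, the enolases Eno1 and Eno3, the lactate dehydrogenase subunit Ldha and the pyruvate dehydrogenase kinase Pdk1. Every probe carrying one of these names was used, which gave 13 probes of the 41012 on the array, printed on 49 spots, for 10 of its 35561 gene names. All 13 passed the filter on dim probes, as did 31767 probes in all.

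Primary cultures of neonatal rat heart tissue had grown for 1 day in DMEM medium before treatment. Celecoxib was given at reference concentrations of 1/25, 1/5 and 1 for 6 h or for 24 h, with 3 arrays for each of the 6 groups, and 2 untreated arrays were analysed here as the controls. The labels give no absolute concentration, no vehicle and no time for the untreated cultures, so each comparison with untreated cells also holds any effect of time in culture and of solvent. Trizol RNA of each culture was labelled with Cy3 and hybridised alone to an Agilent rat array, and nothing in the labels says that the replicates were separate cultures, so the p-values measure the spread between arrays, which may be technical.

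All 10 heart muscle marker genes, among them Myh6, Tnnt2 and Actn2, passed the scanner's test for signal well above background on each of the 20 arrays. So did 5 of 7 fibroblast, 4 of 6 macrophage and leukocyte, 3 of 4 smooth muscle, 1 of 5 endothelial and 1 of 4 erythroid markers. Between 63.6% and 83.1% of all probes were well above background per array, so these counts do not show which cell types were present. The sample titles call the cells cardiomyocytes, and the mix of cell types was not measured. If there was a mix, fewer cells of a type and less RNA per cell cannot be told apart. Groups held 2 or 3 arrays, and that small number limits the precision of every value. Replicate 3 of celecoxib 1/25 at 6 h and untreated replicate 1 stood furthest from the other arrays, with median correlations of log2 levels of 0.885 and 0.897 with them. The arrays were scanned on 2 days. The second day held 6 arrays, all of them 6 h treatments: every array of celecoxib 1/5, 2 of celecoxib 1/25 and 1 of celecoxib 1. The other 14, untreated and 24 h arrays among them, were scanned on the first. With a mean for each group in the fit, 30.7% of all probes differed between the scan days at an adjusted p below 0.05.

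Heart muscle takes up glucose through GLUT1 (Slc2a1), which sits in the surface membrane at all times, and GLUT4 (Slc2a4), which insulin and contraction bring to the membrane. Hexokinase traps the sugar as glucose 6-phosphate, phosphofructokinase commits it to glycolysis, phosphoglycerate kinase and enolase act on the later steps, and lactate dehydrogenase turns pyruvate into lactate. Pyruvate dehydrogenase kinase keeps pyruvate out of the mitochondrial citric acid cycle. Newborn heart muscle relies on glycolysis more than adult heart muscle does, and many of these genes are known targets of the hypoxia-inducible factor HIF-1.

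Each probe is an oligonucleotide of 60 bases, and those behind the results described most closely are shown as the scanner files give them, 5′ to 3′. Positions are those of the file headers' build rn3.
Eno3 (A_44_P217250, chr10:57555814-57555873, plus strand): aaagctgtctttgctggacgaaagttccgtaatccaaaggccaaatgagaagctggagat
Pgk1 (A_44_P271625, chrX:94410216-94410275, plus strand): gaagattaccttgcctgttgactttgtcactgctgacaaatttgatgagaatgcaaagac
Pfkp (A_43_P15614, chr17:74833468-74833527, plus strand): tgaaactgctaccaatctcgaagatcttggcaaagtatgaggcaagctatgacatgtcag
Pdk1 (A_44_P139718, chr3:54199346-54199646, plus strand): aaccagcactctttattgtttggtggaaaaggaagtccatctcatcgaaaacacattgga
The Pdk1 probe covers 301 bases of the genome, more than its own length, whereas the other 3 lie in single runs of 60 bases.

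One of the 2 Hk1 probes and the Hk2 probe come from matching stretches of these related genes, and they are set side by side because the 2 Hk1 probes gave different readings. Capitals mark the bases that are identical where the last 48 bases of the Hk1 probe lie over the first 48 of the Hk2 probe.
Hk1 (A_44_P139536, no position in the files): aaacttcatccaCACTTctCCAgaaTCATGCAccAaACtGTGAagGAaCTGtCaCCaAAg
Hk2 (A_44_P452291, chr4:117170976-117172483, minus strand): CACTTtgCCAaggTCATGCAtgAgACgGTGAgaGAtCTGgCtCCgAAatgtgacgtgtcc
They share 32 of those 48 bases, or 66.7%.

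Across the whole set, few of these genes were called different from untreated cells. The confidence intervals were between 1.17 and 2.47 log2 units wide, so genes without a call cannot be taken as unchanged. A call here does not separate celecoxib from time in culture, solvent or, for celecoxib 1/5 at 6 h, scan day. The 9 genes counted here leave out Slc2a1, whose probe was saturated on every array. At an adjusted p below 0.05 in limma, 1 of the 9, Eno3, was lower than in untreated cells after celecoxib 1/5 for 6 h. In that comparison 6.16% of all probes were called. None of the 9 was called in the other 5 comparisons with untreated cells. There the share of all probes called was 5.77% for celecoxib 1/25 at 6 h, 0.428% for celecoxib 1 at 6 h, 0.277% for celecoxib 1/25 at 24 h, 0.284% for celecoxib 1/5 at 24 h and 0.0567% for celecoxib 1 at 24 h. At an unadjusted p below 0.05 the same 5 comparisons held 1, 0, 0, 3 and 0 of the 9 genes, beside 29.1%, 18.2%, 11.4%, 14.2% and 10.8% of all probes. Celecoxib 1/5 at 6 h held 1 of 9, beside 23.9% of all probes. The median log2 difference of the 9 genes from untreated cells was -0.17, -0.35 and -0.06 after celecoxib 1/25, 1/5 and 1 for 6 h, beside -0.21, -0.20 and -0.08 over all probes. After 24 h it was -0.06, -0.17 and -0.19, beside -0.05, -0.04 and -0.00 over all probes.

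**Figure D1:**
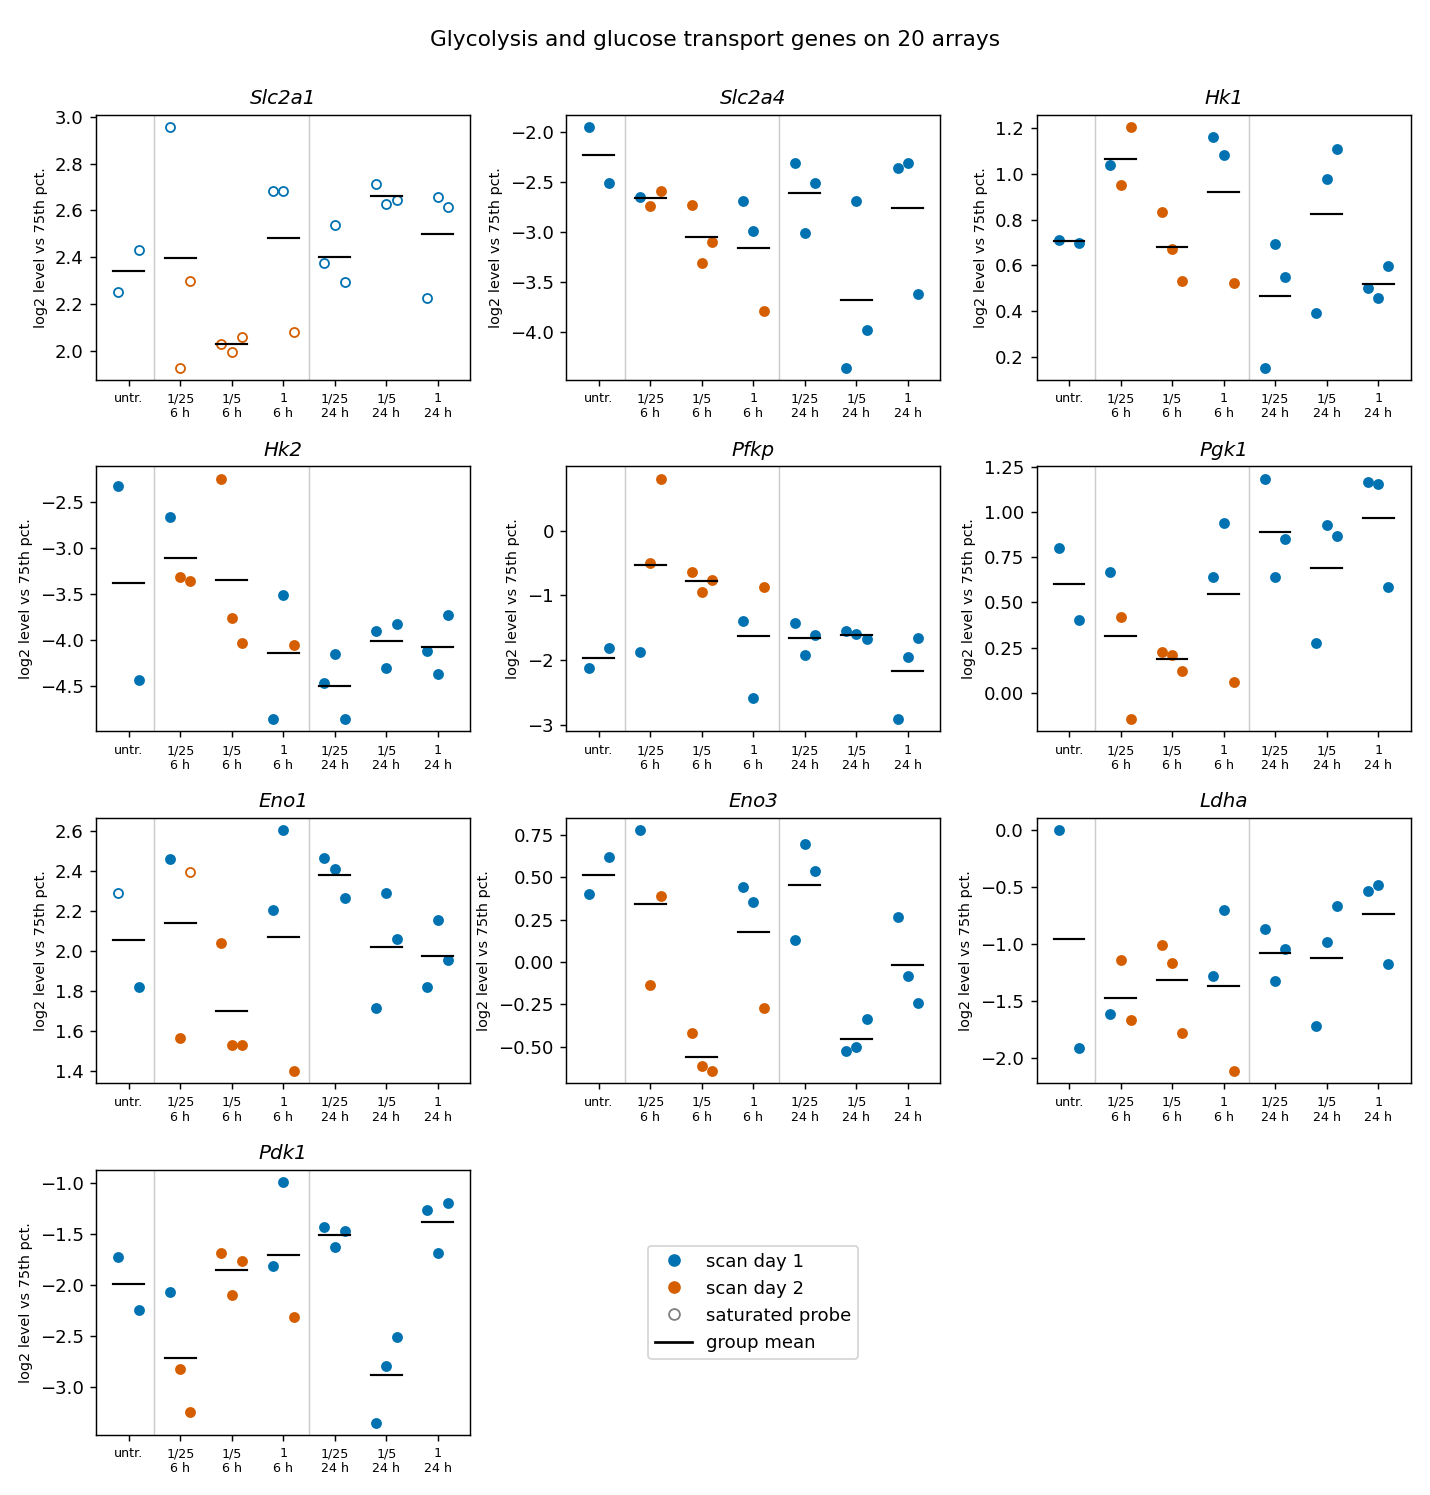
Log2 level of each gene relative to the 75th percentile of its array (vertical axis) on the 20 arrays, by group (horizontal axis: untreated, then celecoxib 1/25, 1/5 and 1 for 6 h and for 24 h). Points are arrays, coloured by scan day, open points are arrays on which the probe was saturated, and black lines are group means. The 6 arrays of scan day 2 sit above all 14 others for Pfkp, and Pdk1 is lowest at 24 h in the 3 arrays of celecoxib 1/5, between -3.35 and -2.51. With group means in the fit, 30.7% of all probes were called between the scan days.

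**Figure D2:**
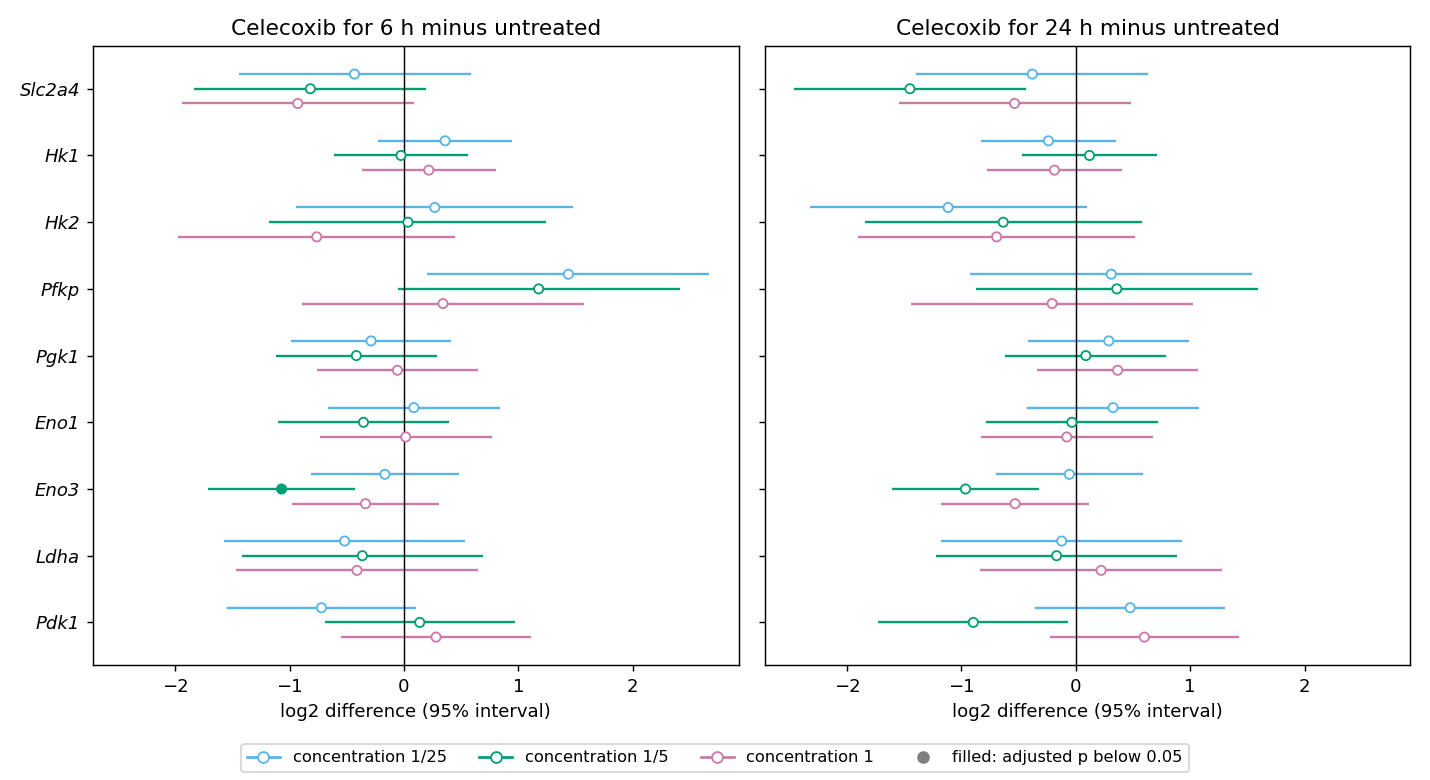
Log2 difference of each celecoxib group from untreated cells (horizontal axis) with its 95% interval, at 6 h on the left and 24 h on the right. Shown are the 9 genes not saturated on every array. The Eno1 probe was saturated on 1 of the 2 untreated arrays. Filled points have an adjusted p below 0.05, which holds for 1 point, Eno3 after celecoxib 1/5 for 6 h at -1.07. Intervals are between 1.17 and 2.47 log2 units wide.

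Slc2a1, the basal glucose transporter, was too bright to be measured. Its probe was saturated on all 20 arrays, on 193 of its 200 spots, with a processed signal between 58087 and 67627. No difference between groups is given for it.

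Slc2a4, the insulin-responsive transporter, was measured by 10 spots of 1 probe and a single spot of another, and values given here are from the first unless stated. Its log2 level was -4.36, -2.69 and -3.99 after celecoxib 1/5 for 24 h, against -1.95 and -2.51 in untreated cells. The probe was well above background on only 2 of these 3 treated arrays, where its signal lay between 478 and 1606. All 3 treated arrays were below both untreated arrays, and the middle treated array was far closer to the untreated ones than the other two. The difference was -1.45 ± 0.48 (SE), with an adjusted p of 0.194, so it did not pass the test. Eno3 and Pdk1 were also below both untreated arrays in this comparison, which makes 3 of 9 genes, beside 19.2% of all probes. Pfkp alone was above both, beside 20.2% of all probes.

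The mean Slc2a4 level of each of the 6 celecoxib groups was below that of untreated cells, with no call. The log2 level at 6 h was -2.65, -2.74 and -2.59 for celecoxib 1/25, -2.73, -3.31 and -3.10 for celecoxib 1/5 and -2.69, -2.99 and -3.80 for celecoxib 1, so every 6 h array was below both untreated arrays. Arrays without overlap in that direction made up 19.5%, 31.1% and 16.9% of all probes at these concentrations. The 6 differences from untreated cells lay between -1.45 and -0.38, with adjusted p-values no lower than 0.194. All 6 share the same 2 untreated arrays. On the second probe the 6 differences lay between -1.66 ± 0.62 (SE) for celecoxib 1/5 at 6 h and -0.00 ± 0.62 (SE) for celecoxib 1/25 at 24 h, with adjusted p-values no lower than 0.112, and celecoxib 1/5 at 24 h was at -0.89 ± 0.62 (SE). Of the 6 groups on that probe, only celecoxib 1/5 at 6 h had every array below both untreated arrays.

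Hk1, the hexokinase of most tissues, spanned a 2.07-fold range over the 20 arrays on its brighter probe. Its log2 level lay between 0.15 and 0.69 after celecoxib 1/25 for 24 h and between 0.46 and 0.60 after celecoxib 1 for 24 h, against 0.71 and 0.70 in untreated cells. Both treated groups were below both untreated arrays by small amounts, where 19.2% and 16.6% of all probes were below both. After celecoxib 1/25 for 6 h it lay between 0.95 and 1.21, above both, as were 10.2% of all probes. The adjusted p-values of these 3 comparisons were 0.846, 0.876 and 0.41. On the second, dimmer Hk1 probe the means of the 6 celecoxib groups lay between -3.78 and -3.07, below the untreated mean of -2.73. That of celecoxib 1/25 at 6 h was -3.12, so there the 2 probes went opposite ways. The untreated arrays of the second probe were far apart, at -3.82 and -1.64.

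Hk2, the insulin-regulated hexokinase of muscle, was dim and differed widely within the untreated pair. All 18 celecoxib arrays lay between -4.86 and -2.24 on the log2 scale. The log2 level was -2.32 in untreated replicate 1 and -4.44 in untreated replicate 2, and its probe was well above background on 18 of the 20 arrays. The second Hk1 probe, shown above beside that of Hk2, gave -1.64 and -3.82 on the same 2 arrays, a gap that the brighter Hk1 probe did not show. Ldha, an unrelated gene, also differed between these arrays, at -0.00 and -1.91. Untreated replicate 1 had the lowest ratio of 75th percentile to median signal of all 20 arrays, 4.07, against 5.24 in replicate 2. The cause of these gaps was not tested. Over the 3 concentrations, 24 h minus 6 h was -0.66 ± 0.30 (SE) for Hk2, with an adjusted p of 0.124.

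Pfkp, the platelet form of phosphofructokinase, had the widest range of the 9 genes not saturated on every array. It spanned 13.1-fold between the lowest and the highest array, and its levels followed the scan day. After celecoxib 1/25 for 6 h its log2 level was -1.86, -0.51 and 0.80, where the first array was scanned on day 1 and the others on day 2. After celecoxib 1 for 6 h it was -1.40 and -2.59 on day 1 and -0.88 on day 2. After celecoxib 1/5 for 6 h all 3 arrays were from day 2, at -0.63, -0.95 and -0.76, against -2.12 and -1.80 in untreated cells.

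The lowest Pfkp level on day 2 was -0.95 and the highest among the 14 arrays of day 1 was -1.40, so the days did not overlap. How many of all probes separate the days in this way was not counted. With group means in the fit, day 2 minus day 1 was 1.56 ± 0.41 (SE), with an adjusted p of 0.0108 in limma, where 30.7% of all probes were called. The difference of celecoxib 1/25 at 6 h from untreated cells was 1.44 ± 0.58 (SE) without the day and 0.39 ± 0.51 (SE) with it, with adjusted p-values of 0.121 and 0.597. Without replicate 1 of celecoxib 1/25 at 6 h, which leaves 2 arrays of day 2, the difference was 2.11 ± 0.51 (SE) with an adjusted p of 0.0189. In that run 4193 probes were called in this comparison, against 1832 with all arrays. After 24 h, where all arrays are from day 1, the 3 differences of Pfkp from untreated cells lay between -0.21 and 0.36.

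Pgk1, which makes ATP in the second stage of glycolysis, was the one gene of the 9 called between the times, where 20% of all probes were called. At 24 h its log2 level was 1.18, 0.64 and 0.85 for celecoxib 1/25, 0.28, 0.93 and 0.87 for celecoxib 1/5 and 1.16, 1.16 and 0.58 for celecoxib 1. At 6 h it was 0.67, 0.42 and -0.15, then 0.23, 0.21 and 0.12, then 0.64, 0.94 and 0.06 at the same concentrations. The arrays of the 2 times overlapped, with the lowest values of all in the 6 h groups. Among the 6 h arrays, those of day 2 lay between -0.15 and 0.42 and those of day 1 between 0.64 and 0.94. With group means in the fit, day 2 minus day 1 was -0.63 ± 0.26 (SE) for Pgk1, with an adjusted p of 0.0773 in limma.

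Averaged over the 3 concentrations, Pgk1 was higher at 24 h than at 6 h by 0.50 ± 0.17 (SE), with an adjusted p of 0.0489 in limma. With scan day in the fit, the difference was 0.08 ± 0.22 (SE), with an adjusted p of 0.862. On day 1 alone it was 0.20 ± 0.23 (SE), with an adjusted p of 0.601, and without the 2 arrays that stood apart 0.42 ± 0.17 (SE), with an adjusted p of 0.0938. With 1 array left out at a time, the call held in 5 of 18 runs, with differences between 0.42 and 0.57. The median over all probes was 0.10 higher at 24 h in this comparison.

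**Figure D3:**
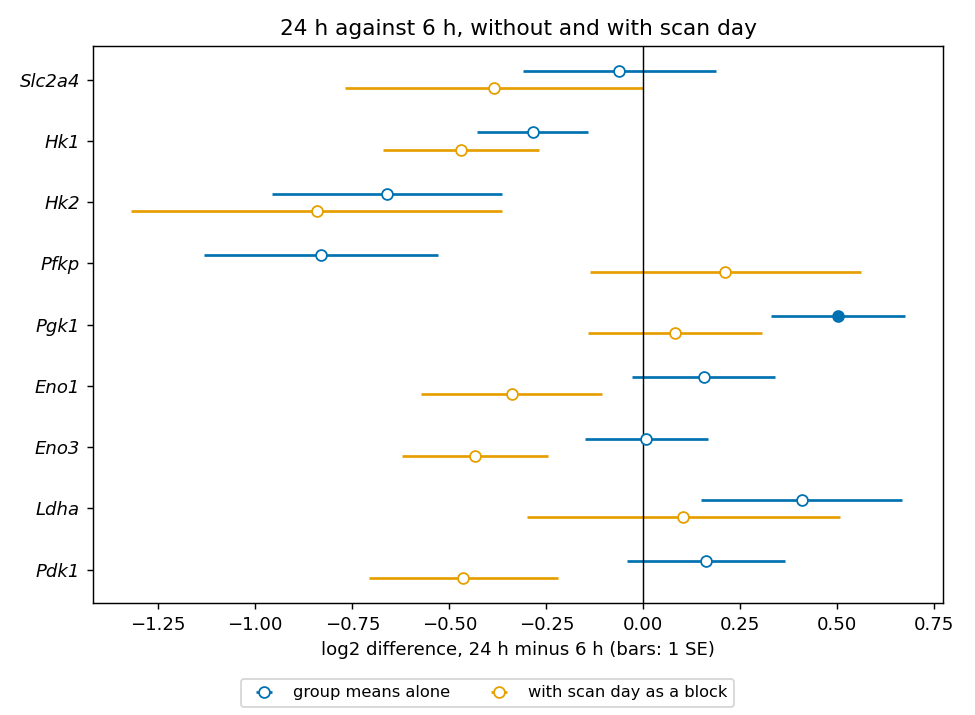
Log2 difference of 24 h minus 6 h, averaged over the 3 concentrations (horizontal axis), for 9 genes, from group means alone (blue) and with scan day as a block (orange). Bars are 1 SE and filled points have an adjusted p below 0.05. Pgk1 is 0.50 from group means alone and 0.08 with scan day, and Pfkp is -0.83 and 0.21.

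Of the enolases, Eno1, the form found in most tissues, was close to the top of the scanner's range, with 1 probe saturated on 6 of 20 arrays and the other on 2. The probe saturated less often was saturated on 1 of the 2 untreated arrays and on 1 array of celecoxib 1/25 at 6 h. On that probe, the 6 differences from untreated cells lay between -0.35 and 0.33, with adjusted p-values no lower than 0.573. All 6 rest in part on the saturated untreated array.

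Eno3, the muscle form of enolase, was lower after the middle concentration for 6 h, the 1 call of the set against untreated cells. Its log2 level after celecoxib 1/5 for 6 h was -0.42, -0.62 and -0.64, against 0.40 and 0.62 in untreated cells. All 3 treated arrays were below both untreated ones. The difference was -1.07 ± 0.31 (SE), with an adjusted p of 0.0475 in limma, where the median of all probes was -0.20. Pgk1 and Slc2a4 were also below both untreated arrays in this comparison and Pfkp was above both, or 3 and 1 of 9 genes, beside 31.1% and 19.9% of all probes.

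All 3 arrays of that Eno3 group were scanned on day 2 and both untreated arrays on day 1. A scan day term in the fit therefore rests on celecoxib 1 and 1/25 at 6 h, the only groups scanned on both days. With scan day in the fit the difference was -0.41 ± 0.32 (SE), with an adjusted p of 0.48, and the call was also lost when any 1 of the 5 arrays was left out, with differences between -1.18 and -0.96 and adjusted p-values between 0.0856 and 0.23. Without the 2 arrays that stood apart it was -1.18 ± 0.40 (SE), with an adjusted p of 0.19. That fit, and those without 1 untreated array, leave a lone untreated array that is assumed to vary like the other groups. The day itself differed for Eno3, by -0.66 ± 0.22 (SE) for day 2 minus day 1, with an adjusted p of 0.0326. The summed level of the 10 heart muscle markers, relative to the 75th percentile of each array, was 20.8 to 24.9 in these 3 arrays and 25.1 to 26.7 in untreated cells, and that of the 7 fibroblast markers was 8.80 to 10.1 and 12.6 to 15.4. Tnnt2 and Pdgfra were saturated on 16 and 15 of the 20 arrays, and without them the sums were 16.3 to 20.8 and 20.1 to 21.7 for heart muscle and 4.96 to 6.43 and 6.71 to 11.1 for fibroblasts. None of these 17 markers was called in this comparison, where 6.16% of all probes were. At an unadjusted p below 0.05 there were 2 of 17, beside 23.9% of all probes. Their part in the Eno3 result was not tested.

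After celecoxib 1/5 for 24 h, where every array was scanned on day 1, the log2 level of Eno3 was -0.52, -0.50 and -0.34. These 3 arrays were again below both untreated ones, by -0.96 ± 0.31 (SE), with an adjusted p of 0.177. Here the summed heart muscle markers were above those of untreated cells, at 36.7 to 41.5, or 29.6 to 34.5 without Tnnt2. The summed fibroblast markers were also above, at 16.7 to 18.8 against 12.6 to 15.4. Without Pdgfra they overlapped, at 9.71 to 12.1 against 6.71 to 11.1. Of the 10 and 7 markers, 0 were called and 0 had an unadjusted p below 0.05, beside 14.2% of all probes. Their part in the Eno3 values was not tested. Celecoxib 1/25 for 24 h gave 0.13, 0.70 and 0.54, and celecoxib 1 for 24 h gave 0.26, -0.08 and -0.24. The order of the 24 h groups was therefore celecoxib 1/25, 1 and 1/5 from high to low, and the arrays of celecoxib 1 and 1/25 overlapped.

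Ldha, the subunit of lactate dehydrogenase that favours lactate production, was called in no comparison, and the untreated pair spanned almost its whole range. All 18 celecoxib arrays lay between -2.12 and -0.49 on the log2 scale. The log2 level was -0.00 in untreated replicate 1, from 9 spots in use, and -1.91 in untreated replicate 2, from 10 spots, or signals of 13320 and 3260. The spots of the probe differed far less within an array, with an SD between 0.02 and 0.36 log2 units. The 6 differences from untreated cells lay between -0.52 and 0.22, with 95% intervals about 2.11 log2 units wide.

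**Figure D4:**
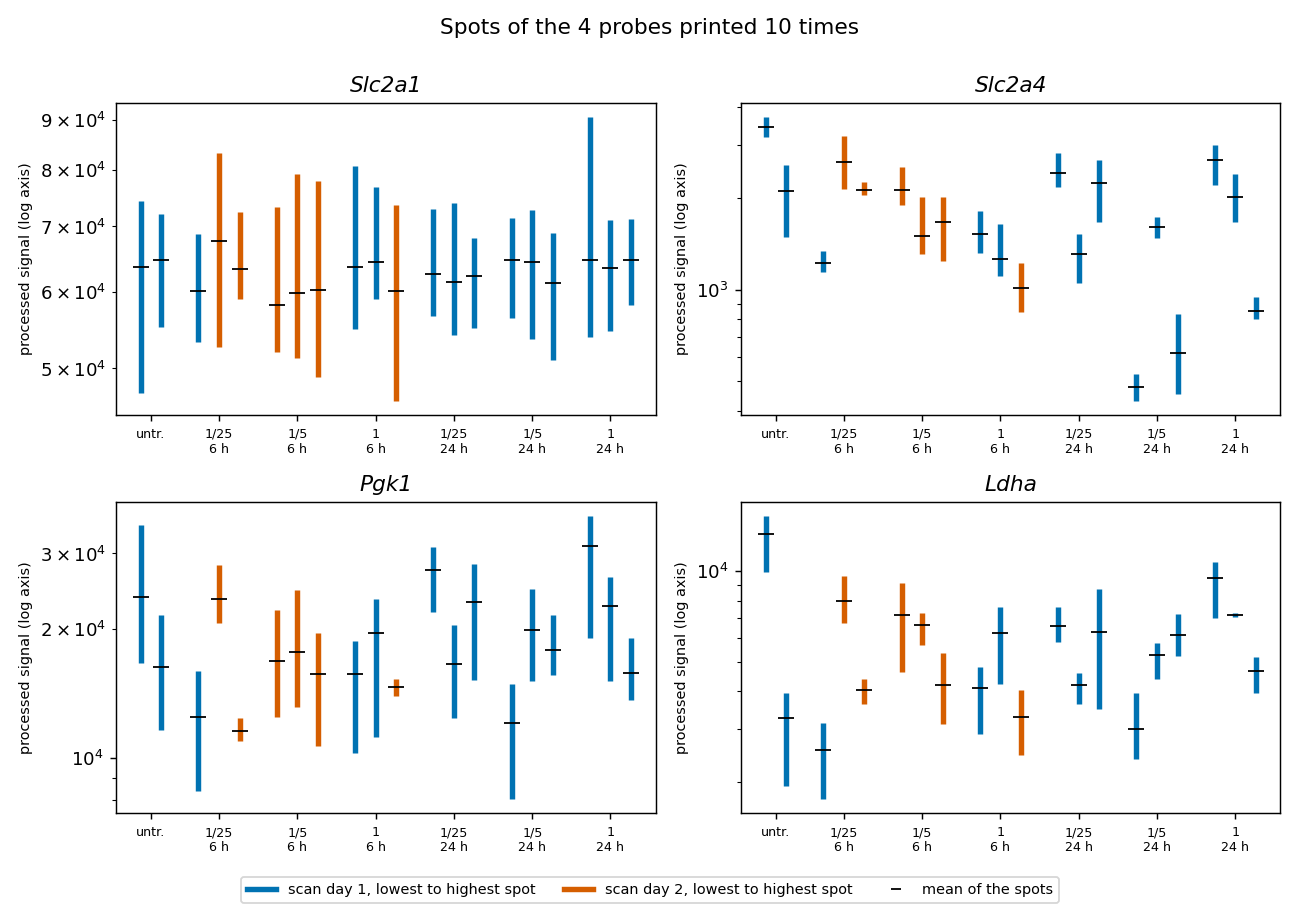
Processed signal (vertical log axis) of the 4 probes printed on 10 spots, for each array by group (horizontal axis). Bars run from the lowest to the highest spot in use and are coloured by scan day, and black ticks are the mean of the spots. Untreated replicates 1 and 2 do not share any signal for Ldha, at 9937 to 15284 and 1939 to 3963, while Slc2a1 stays near the top of the range on every array.

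Pdk1, the kinase that shuts off pyruvate dehydrogenase and is induced by HIF-1, had its lowest 24 h readings in the middle concentration, a pattern that passed no test over all probes. At 24 h its log2 level was -1.43, -1.63 and -1.47 for celecoxib 1/25, -3.35, -2.79 and -2.51 for celecoxib 1/5 and -1.27, -1.69 and -1.20 for celecoxib 1, against -1.72 and -2.25 in untreated cells. The 3 arrays of celecoxib 1/5 were below all other 24 h arrays and both untreated arrays, and those of 1/25 and 1 were above both untreated arrays, beside 13.6% and 11.4% of all probes. The groups of celecoxib 1 and 1/25 overlapped.

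These 2 comparisons of Pdk1 were added once its values had been seen. Celecoxib 1 minus 1/5 at 24 h was 1.50 ± 0.35 (SE), with a 95% interval from 0.75 to 2.24, and celecoxib 1/5 minus 1/25 was -1.37 ± 0.35 (SE), from -2.11 to -0.63. With normexp background correction they were 1.21 ± 0.34 and -0.66 ± 0.34 (SE), and celecoxib 1/5 minus untreated at 24 h was -0.47 ± 0.38 (SE), against -0.90 ± 0.39 (SE) without it. Adjusted over all probes, the p-values were 0.486 and 0.897, and 0.00315% and 0% of all probes were called. Groups without overlap in the same directions made up 6.9% and 6.36% of all probes. All 9 arrays at 24 h were scanned on day 1.

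At 6 h the lowest mean of Pdk1 was that of the lowest concentration. Its log2 level was -2.06, -2.83 and -3.24 for celecoxib 1/25, -1.69, -2.10 and -1.76 for celecoxib 1/5 and -1.82, -0.99 and -2.31 for celecoxib 1. Celecoxib 1 minus 1/25 at 6 h was 1.00 ± 0.35 (SE), with an adjusted p of 0.761 and overlapping arrays, where 0% of all probes were called. With scan day in the fit it was 0.69 ± 0.28 (SE), and day 2 minus day 1 was itself -0.94 ± 0.28 (SE) for Pdk1, with an adjusted p of 0.0216. The change of this difference between 24 h and 6 h was -0.88 ± 0.50 (SE), with an adjusted p of 0.999, and no probe on the array was called for it, while 3.63% had an unadjusted p below 0.05.

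None of the 9 genes was called in the 4 comparisons of concentrations that were run, which leave out celecoxib 1/5 against the others at 6 h. Between celecoxib 1 and 1/25, limma called 0 of 9 genes and 0% of all probes at either time, while at an unadjusted p below 0.05 it held 1 of 9 genes at 6 h and 0 at 24 h, beside 6.44% and 3.08% of all probes. At 24 h, 2 of 9 genes had an unadjusted p below 0.05 for celecoxib 1 minus 1/5 and 3 for 1/5 minus 1/25, beside 5.39% and 3.82% of all probes. These 2 comparisons were added once the values of Pdk1 had been seen, so their counts are no test of the set. The log2 differences of the 9 genes for celecoxib 1 minus 1/25 lay between -1.10 and 1.00 at 6 h and between -0.52 and 0.42 at 24 h, with 95% intervals up to 2.21 log2 units wide.

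The rest of the pathway was read from 27 further glycolysis and transport genes, of which 22 passed the filter on dim probes. One of them, Eno2, was saturated on all 20 arrays, which leaves 21. After celecoxib 1/5 for 6 h, 1 of the 21 was higher and 1 lower at an adjusted p below 0.05, beside 6.16% of all probes. At an unadjusted p below 0.05 there were 7 of 21, beside 23.9% of all probes. The median of the 21 was -0.43, beside -0.20 over all probes. Slc16a1, a lactate carrier, rose by 1.61 ± 0.42 (SE), with an adjusted p of 0.0375, and Pgam2, the muscle phosphoglycerate mutase, fell by 1.36 ± 0.35 (SE) on the log2 scale, with an adjusted p of 0.0363. None of the 21 was called against untreated cells in the other 5 comparisons, where 0 to 3 had an unadjusted p below 0.05, beside 10.8% to 29.1% of all probes.

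Around pyruvate dehydrogenase, 7 of 11 listed genes passed the filter, and 6 without Pdha1, which was saturated on all arrays. Ppm2c, a pyruvate dehydrogenase phosphatase under its older name, was higher after celecoxib 1/5 and 1/25 for 6 h, by 1.54 ± 0.38 and 1.49 ± 0.38 (SE), with adjusted p-values of 0.0324 and 0.0364. Pdk2, another kinase of the complex, was lower after celecoxib 1/5 for 6 h at -1.25 ± 0.35 (SE), with an adjusted p of 0.0462. Of 20 listed HIF pathway genes and targets 18 passed, and 17 without Adm, saturated on all arrays. Txnip, which restrains glucose uptake, was the 1 gene of these called higher after celecoxib 1/5 for 6 h, at 2.92 ± 0.58 (SE), with an adjusted p of 0.0186, on a probe saturated on 3 of 20 arrays. Vegfa and Car9 were lower after celecoxib 1/25 for 6 h, at -1.57 ± 0.39 and -1.38 ± 0.39 (SE), with adjusted p-values of 0.0342 and 0.0474, where 5.77% of all probes were called. At 6 h, 2, 3 and 1 of the 6 had an unadjusted p below 0.05 after celecoxib 1, 1/5 and 1/25. Of the 17, 3, 5 and 9 did, beside 18.2%, 23.9% and 29.1% of all probes. No gene of these 2 lists was called after 24 h against untreated cells. There 0 to 1 of the 6 and 2 to 4 of the 17 had an unadjusted p below 0.05, beside 10.8% to 14.2% of all probes. With scan day in the fit, 7 of the 8 calls of the 3 lists against untreated cells were lost, with adjusted p-values between 0.0793 and 0.572. Txnip was then at 1.18 ± 0.51 (SE) and Slc16a1 at 0.39 ± 0.38 (SE) after celecoxib 1/5 for 6 h. Car9, a carbonic anhydrase induced by hypoxia, was still called, at -1.50 ± 0.45 (SE), with an adjusted p of 0.0459. For celecoxib 1/25 at 6 h, 3349 probes were called with scan day in the fit, against 1832 without it.

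Between 24 h and 6 h, where 20% of all probes were called, 14 genes of the 3 lists were called, and with scan day in the fit none was, with adjusted p-values between 0.0766 and 0.973. Of the glycolysis genes 4 were higher and 2 lower at 24 h. Among them, Pfkfb1, which makes and breaks down the activator of phosphofructokinase, was at 1.08 without and 1.24 with scan day, and Tpi1, triose phosphate isomerase, at 0.60 and 0.04. Pfkm, the muscle phosphofructokinase, was at -1.11 and 0.06, and Slc16a1 at -0.68 and 0.13. Around pyruvate dehydrogenase 2 were higher and 1 lower: Pdp2, another phosphatase of the complex, at 0.92 and 0.27, Pdk2 at 0.62 and 0.47, and Ppm2c at -0.995 and -0.536. Of the HIF list 3 were higher and 2 lower, among them P4ha1, a collagen prolyl hydroxylase, at 1.04 and 0.74 and Hmox1, heme oxygenase, at 0.48 and 0.54. Txnip was at -1.08 and 0.08, and P4ha2, a second collagen prolyl hydroxylase, at -1.11 and 0.57.

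Promoter windows from RefSeq (build GRCr8, 250 before to 50 after a start site) were at hand for 8 of the 10 genes, in 10 windows. By the gene bounds of the same build, 5 windows lay at the outer start of the gene and 5 at a site inside it, 50 bases in for Pdk1, 64 for Pfkp, 306 for Eno3, 494 for 1 of the 2 of Eno1 and 32742 for 1 of the 2 of Hk1. The HIF core motifs ACGTG and GCGTG were counted on both strands. At least 1 of them was present in 7 of the 10 windows, or 70%, beside 41.6% of 33469 promoters of all genes. The window of Ldha held 3 of each motif and that of Pdk1 2 of each, while those of Hk2 and Eno3 held neither. Eno1 counts with both its windows, and Hk1 only with the one inside the gene. Windows rather than genes were counted, base composition was not matched, and the difference in share was not tested.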

How the data were processed

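The labels, the scanner files and a value table for 20 arrays were used. Per the file headers, Agilent Feature Extraction 9.5.3.1 gave the deposited fluorescence intensity of each spot on a linear scale, background-corrected, with flags for saturation, outliers and signal above background. The authors also deposited a table of linear ratios: 99.8% of its 814797 values lay within 5% of the processed signal over the array's median over the mean of the untreated arrays, and its column medians were 0.826 to 1.27. Its scale, centring and direction are known from this comparison alone.

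Control spots and outlier spots were left out, spots of a probe were averaged, and log2 of the signal minus that of the array's 75th percentile was tested. A probe was kept if all arrays of 1 or more groups passed the scanner's background flag for it. A gene with several probes is represented by the brightest probe that was not saturated on most arrays. The fit was limma 3.58.1 in R 4.3.3, with 7 group means fitted to all 20 arrays (13 residual degrees of freedom), two-sided, adjusted by Benjamini-Hochberg over all probes kept and called below 0.05. The script was tested on simulated data.

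The members and lists were chosen with earlier results of these data known. All 10 genes are named, and of other lists a gene is named where it is called, at most the 4 lowest adjusted p-values per list and comparison. The 2 comparisons with celecoxib 1/5 at 24 h, the scan day effect, the fit on unsaturated probes, the fit without 2 arrays, and the lists and marker sums without saturated genes were added after seeing the data.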

Additional observations from a re-analysis of the deposited data

How the results depend on the processing

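Counts of called probes are given in the order celecoxib 1, 1/5 and 1/25 at 6 h, then at 24 h, each against untreated cells, and 24 h against 6 h. The main counts were 136, 1955, 1832, 18, 90, 88 and 6360. With normexp background correction they were 264, 3938, 2372, 192, 316, 110 and 7229, with quantile normalization 304, 3966, 2493, 31, 137, 75 and 7455, and with no filter on dim probes 115, 1890, 1028, 41, 55, 65 and 5478. With slide as a random block (correlation 0.328) they were 434, 3, 13, 3, 4, 2 and 399, and with scan day as a block 2382, 284, 3349, 124, 392, 265 and 1294. On scan day 1 alone, with no array of celecoxib 1/5 at 6 h, they were 1510, 2572, 32, 235, 223 and 2189. In the authors' value table they were 95, 2316, 2652, 11, 40, 40 and 5757. With the replicate block they were 45, 709, 536, 17, 47, 32 and 6449, and without untreated replicate 1 and replicate 3 of celecoxib 1/25 at 6 h, which stood apart, 18, 20, 10, 12, 17, 42 and 5515. Leaving out 1 array at a time gave 7 to 938, 8 to 1535, 16 to 5282, 4 to 247, 11 to 265, 6 to 262 and 4809 to 9920, where untreated replicate 1 set the 3 lowest counts at 6 h. Between celecoxib 1 and 1/25, 2 probes were called at 24 h with scan day as a block, and 0 to 26 at 6 h with 1 array left out. Between celecoxib 1 and 1/5 at 24 h, 1 probe was called, 3 with scan day as a block, and 0 on day 1 alone, with the replicate block or without the 2 arrays, and 0 to 1 with 1 array left out.

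Of the members, 1 gene was called after celecoxib 1/5 at 6 h (Eno3), and 0 with normexp, no filter, either block for slide or scan day, the replicate block, the authors' table, unsaturated probes only, without the 2 arrays, and in each run that left out 1 array. In the comparison of the times 1 was called (Pgk1), 2 with normexp (with Hk2) and with the replicate block (with Pfkp), 0 with no filter, slide, scan day, day 1 alone, the authors' table, unsaturated probes or without the 2 arrays, and 0 to 2 with 1 array left out. After celecoxib 1/25 at 6 h 0 to 1 were called with 1 array left out, the 1 being Pfkp, in a run where 4193 probes were called. The cause of these losses was not tested. Of 1935 values of single genes, 1780 kept the sign of the main fit. The results called in the main fit, those of Eno3 and Pgk1 above, never changed direction, but 33 of their values lost the call. Of the values not called in the main fit, 5 became called and 80 others moved by more than the spread between replicates. Replicate numbers did not pair the arrays: 57 same-numbered pairs had a mean correlation of deviations of -0.0036, 9 were above 0.1, and 7 of 20 arrays were closest to their own number.

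Scaling moved the median of all probes: after celecoxib 1 for 24 h it was -0.00 with the 75th percentile, 0.07 with quantile normalization and 0.29 in the authors' table. The share of called probes that were lower after celecoxib 1/25 at 6 h was 64.5%, 36.0% and 21.3% in the same order, and after celecoxib 1/5 at 6 h 33.8%, 32.3% and 16.4%. After celecoxib 1 at 6 h it was 71.3%, 48.4% and 45.3%, and at 24 h after celecoxib 1/5 it was 82.2%, 51.1% and 65%. Saturation limits Slc2a1 and Eno1, and dim signal limits Hk2 and, after celecoxib 1/5 for 24 h, Slc2a4.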
